A study of Mus musculus with 6 samples.

Results

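The SLAM family receptors described here are a set of 8 genes, Slamf1, Slamf6, Slamf7, Slamf8, Slamf9, Cd48, Cd84 and Ly9. They were taken by gene symbol from the 19938 genes that the arrays measured through probe sets with a single symbol. Cd244a, which encodes a further receptor of the family, is outside this set and is described with the receptors of CD48. All 8 were measured, each by 1 probe set, so no choice between probe sets was needed. Expression was profiled in bone marrow cells of 6 diseased mice on Affymetrix mouse gene arrays, 1 array per mouse. The 3 HoxA9AA/Meis1 mice had received donor cells carrying Meis1 and the altered form of the homeobox gene HoxA9 that the depositors call HoxA9AA, and the 3 HoxA9wt/Meis1 mice had received donor cells carrying Meis1 and the wild-type form. In both groups the donor cells were CD45.2+ LSK cells, a fraction of mouse marrow rich in stem and progenitor cells, the HoxA9 form was delivered together with GFP, and the hosts were CD45.1+ mice that had been lethally irradiated. Marrow was harvested when disease appeared. It was measured whole, so that surviving host cells and donor cells without the introduced genes can contribute to every value, and the labels used here name no strain, sex or age of the mice.

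SLAM receptors are surface proteins of the immunoglobulin superfamily on blood cells. Most bind a copy of themselves on a neighbouring cell, and phosphorylated tyrosines in their tails recruit the small adaptors SAP and EAT-2 or phosphatases. In mouse marrow they are best known as the SLAM code, in which haematopoietic stem cells carry the Slamf1 product CD150 and lack CD48, while most committed progenitors and mature leukocytes carry CD48. All values below are on the log2 scale as deposited, where 1 unit corresponds to a 2-fold change.

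HoxA9AA replicates 1 and 3 stood apart from the other arrays. Pearson's r against the HoxA9wt arrays, taken over genes and so not over independent units, was 0.958 to 0.970 for these 2 arrays and 0.989 to 0.991 for HoxA9AA replicate 2, against 0.987 to 0.990 among the HoxA9wt arrays. Transcripts of Hoxa9 were present on every array, at 8.72, 8.49 and 9.07 in HoxA9AA/Meis1 marrow and 8.93, 8.27 and 7.89 in HoxA9wt/Meis1 marrow. Whether the probes read introduced as well as endogenous transcripts was not tested. Granulocyte precursor genes were strongly expressed, with a mean level over Mpo, Elane, Prtn3 and Ctsg of 10.6 to 12.2 in HoxA9AA/Meis1 and 10.5 to 11.1 in HoxA9wt/Meis1 marrow. This level does not tell marrow from another tissue rich in myeloid cells. As a measure of background, the median of 1015 olfactory receptor genes lay between 4.80 and 4.89 on the 6 arrays and their 95th percentile between 6.52 and 6.72. Values up to that percentile on the same array are called the olfactory receptor range below, although some olfactory receptor genes lay above it.

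None of the 8 SLAM receptors differed between HoxA9AA/Meis1 and HoxA9wt/Meis1 marrow beyond the spread between mice. Cd48, Cd84 and Ly9 were strongly expressed in every mouse of both groups, at 9.69 or more on all 6 arrays. Slamf9 lay above the 95th percentile of the olfactory receptor genes on all 6 arrays and Slamf7 on 4 of 6. Their highest values were 7.92 for Slamf9 in HoxA9wt replicate 1 and 7.82 for Slamf7 in HoxA9AA replicate 2. In the other mice Slamf9 was at 6.65 to 6.95, close to that percentile. Slamf1, Slamf6 and Slamf8 lay below it on all 6 arrays. Of the 8 genes 0 passed the test (limma, adjusted p of 0.815 to 0.976 over all 19938 genes), where the background was 0% of all genes, and 0 had an unadjusted p under 0.05, where 6.74% of all genes had one. The values of the 2 groups overlapped for every receptor, while 11.4% of all genes had non-overlapping groups. A higher mean was found for 4 receptors and a lower one for 4, against 53.6% and 46.4% of all genes. The median difference was 0.015, against 0.01 over all genes. The median size of the difference was 0.16, against 0.097 over all genes. The exact two-sided permutation test gave p of 0.3 to 0.9 for the single receptors, and 3 mice against 3 cannot give less than 0.1.

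**Figure D1:**
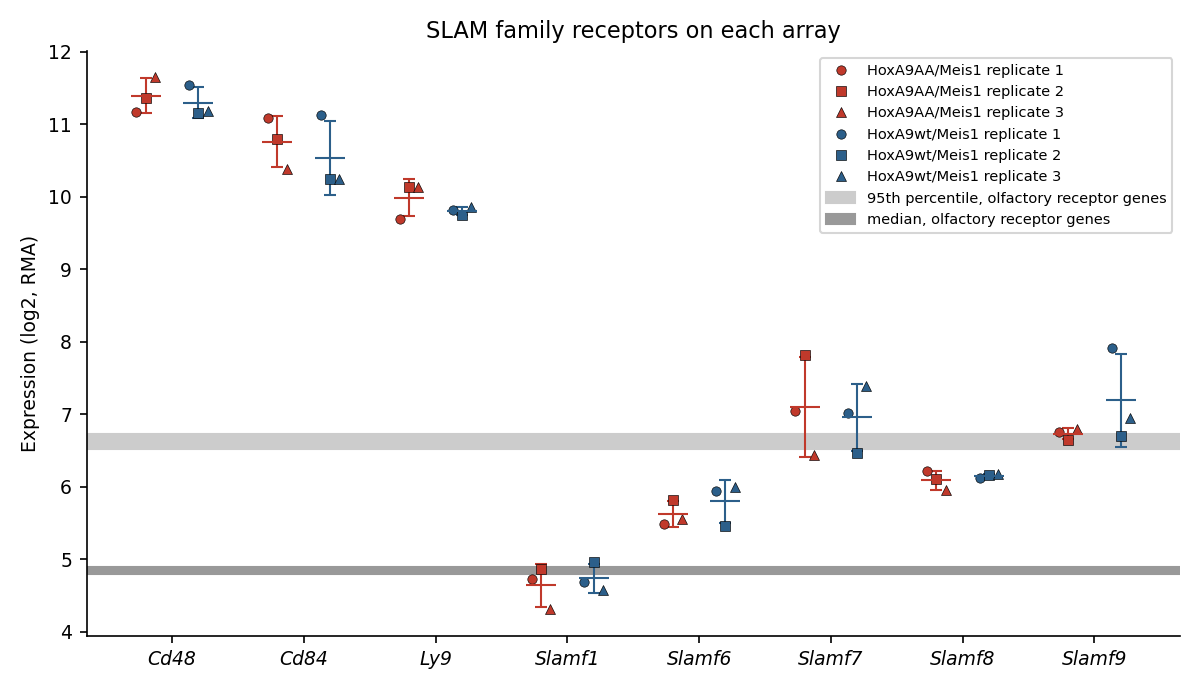
Expression values (log2, vertical axis) of the 8 SLAM receptor genes on each of the 6 arrays, with HoxA9AA/Meis1 in red left of HoxA9wt/Meis1 in blue; each symbol is 1 mouse, bars give mean ± SD of 3 mice, and grey bands are the median (4.80 to 4.89) and 95th percentile (6.52 to 6.72) of the olfactory receptor genes. Cd48, Cd84 and Ly9 lie at 9.69 or more on every array, Slamf1 lies near the olfactory receptor median, and the groups overlap for each gene.

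The 8 genes all lie on chromosome 1 in the RefSeq table of assembly GRCm38.p6, in 1 stretch of 43 genes with Ly9 and Slamf8 at its ends. Promoter sequence was available for 7 of them, all except Ly9. The 250 bases before the RefSeq start, on the strand of the gene, are shown for 3 receptors with different readouts: Cd48, far above background in every mouse, Slamf1, at background in every mouse, and Slamf9, which had the widest difference between the groups. Capitals mark the single match found among 3 searched motifs.
Cd48 (chr1:171681742-171681991, plus strand): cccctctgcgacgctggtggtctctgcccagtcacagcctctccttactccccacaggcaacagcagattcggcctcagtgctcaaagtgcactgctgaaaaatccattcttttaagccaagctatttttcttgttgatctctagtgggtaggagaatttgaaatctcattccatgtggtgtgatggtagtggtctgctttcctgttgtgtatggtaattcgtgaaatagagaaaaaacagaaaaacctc
Slamf1 (chr1:171766882-171767131, plus strand): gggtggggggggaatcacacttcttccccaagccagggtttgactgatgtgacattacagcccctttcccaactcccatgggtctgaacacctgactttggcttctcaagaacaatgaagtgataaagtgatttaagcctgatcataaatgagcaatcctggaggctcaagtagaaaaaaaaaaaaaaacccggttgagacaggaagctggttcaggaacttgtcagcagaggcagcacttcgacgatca
Slamf9 (chr1:172475110-172475359, plus strand): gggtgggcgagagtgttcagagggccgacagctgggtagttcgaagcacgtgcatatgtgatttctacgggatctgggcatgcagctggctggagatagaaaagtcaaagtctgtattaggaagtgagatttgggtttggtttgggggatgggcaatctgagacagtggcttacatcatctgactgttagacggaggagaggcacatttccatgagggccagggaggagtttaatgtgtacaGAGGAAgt
The motifs, searched on both strands, were the core of sites for the myeloid factor PU.1 (GAGGAA), the core of MEIS sites (TGACAG) and a joint PBX and HOX site (TGATTNAT). A PU.1 core was present in 1 of the 7 receptor promoters, that of Slamf9, from 8 to 3 bases before the start, against 23.3% of 32851 RefSeq promoter windows of the same length. The MEIS core was found in 0 of 7 and in 15.9% of all windows, and the PBX and HOX letters in 0 of 7 and in 2.82% of all windows. These counts describe the letters in this window only.

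Cd48 encodes a lipid-anchored receptor of nearly all leukocytes, which serves as the ligand of CD244 and, in mice, of CD2. It measured 11.17, 11.36 and 11.65 in HoxA9AA/Meis1 marrow and 11.55, 11.16 and 11.19 in HoxA9wt/Meis1 marrow. One mouse of each group, HoxA9AA replicate 3 and HoxA9wt replicate 1, was higher than the rest, and the groups overlapped. The difference was 0.09 ± 0.16 (SE; limma, adjusted p = 0.955), with a 95% interval of -0.30 to 0.49. A 2-fold change in either direction lay outside this interval. The sign of this small difference turned to -0.035 without HoxA9AA replicate 3. In whole marrow, fewer cells of a type and less RNA per cell cannot be told apart, for this gene and for those that follow.

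The receptors of CD48 had lower means in HoxA9AA/Meis1 marrow, and neither passed the test. Cd244a, which encodes the receptor 2B4 of NK cells, monocytes and multipotent progenitors, measured 8.34, 9.10 and 8.74 in HoxA9AA/Meis1 and 9.71, 9.06 and 9.21 in HoxA9wt/Meis1 marrow. HoxA9AA replicates 1 and 3 were below every HoxA9wt mouse, and replicate 2 lay between HoxA9wt replicates 2 and 3. The difference was -0.60 ± 0.24 (SE; limma, unadjusted p = 0.045, adjusted p = 0.731). Cd2, an adhesion receptor of T and NK cells, measured 6.82, 7.25 and 6.42 in HoxA9AA/Meis1 and 7.62, 6.95 and 6.90 in HoxA9wt/Meis1 marrow. Again HoxA9AA replicates 1 and 3 were the lowest mice, at a difference of -0.33 ± 0.27 (adjusted p = 0.866). Without HoxA9wt replicate 1 the difference for Cd2 was -0.095.

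Cd84 encodes a self-binding receptor found on B cells, platelets, mast cells and myeloid cells. Its values were 11.09, 10.80 and 10.39 in HoxA9AA/Meis1 marrow and 11.13, 10.25 and 10.24 in HoxA9wt/Meis1 marrow. The level was high in HoxA9AA replicate 1 and HoxA9wt replicate 1 and lowest in HoxA9wt replicates 2 and 3, so that mice of both groups stood at the top. The difference was 0.22 ± 0.29 (SE; limma, adjusted p = 0.931), with a 95% interval of -0.48 to 0.92. It was 0.055 without HoxA9AA replicate 1 and 0.515 without HoxA9wt replicate 1. The mean level of 7 mast cell, basophil and eosinophil markers was 6.20 to 7.44 in HoxA9AA/Meis1 and 6.33 to 7.52 in HoxA9wt/Meis1 marrow. That of 5 megakaryocyte and platelet markers was 6.87 to 7.11 in HoxA9AA/Meis1 and 6.92 to 7.82 in HoxA9wt/Meis1 marrow. The part of these cells in the Cd84 values was not tested.

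Ly9 encodes CD229, a self-binding receptor of lymphocytes that is also present on some progenitors. It measured 9.69, 10.14 and 10.14 in HoxA9AA/Meis1 marrow and 9.82, 9.75 and 9.86 in HoxA9wt/Meis1 marrow. HoxA9AA replicates 2 and 3 were above every HoxA9wt mouse and HoxA9AA replicate 1 was below every one of them. The SD was 0.26 in HoxA9AA/Meis1 and 0.056 in HoxA9wt/Meis1 (n = 3 each). A difference of 0.18 ± 0.14 (SE; limma, adjusted p = 0.850) resulted, with a 95% interval of -0.16 to 0.52, and it was 0.33 without HoxA9AA replicate 1.

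Slamf7 encodes CRACC, a self-binding receptor known from plasma cells and NK cells. Among the 8 receptors it had the widest range in HoxA9AA/Meis1 marrow, 1.38, with values of 7.04, 7.82 and 6.44, against 7.02, 6.47 and 7.39 in HoxA9wt/Meis1 marrow. The highest mouse was HoxA9AA replicate 2 and the lowest were HoxA9AA replicate 3 and HoxA9wt replicate 2, both of which lay below the 95th percentile of the olfactory receptor genes. The difference was 0.14 ± 0.38 (SE; limma, adjusted p = 0.976), and its 95% interval of -0.78 to 1.06 allows a 2-fold higher level. Its sign turned to -0.22 without HoxA9AA replicate 2 and to -0.105 without HoxA9wt replicate 2. Among plasma cell markers, Jchain, the joining chain of secreted antibody, measured 7.25, 8.45 and 8.22 in HoxA9AA/Meis1 and 6.64, 7.47 and 6.79 in HoxA9wt/Meis1 marrow. Its difference was 1.01 (limma, adjusted p = 0.731), while the other plasma cell markers had differences of only -0.06 to 0.13. The mean level of the 5 plasma cell markers, Jchain included, was 7.19 to 7.35 in HoxA9AA/Meis1 and 6.94 to 7.18 in HoxA9wt/Meis1 marrow. The part of plasma cells in the Slamf7 values was not tested.

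Slamf1 and Slamf6, both self-binding receptors with signalling tails, gave no signal above the olfactory receptor range. Slamf1, the CD150 of stem cells, measured 4.73, 4.87 and 4.31 in HoxA9AA/Meis1 and 4.68, 4.96 and 4.57 in HoxA9wt/Meis1 marrow. Only HoxA9wt replicate 2 exceeded the olfactory receptor median of its own array. Slamf6, the Ly108 of T, B and NK cells, measured 5.48, 5.82 and 5.55 in HoxA9AA/Meis1 and 5.94, 5.46 and 6.0 in HoxA9wt/Meis1 marrow, above the olfactory receptor median and below the 95th percentile in all 6 mice. At such levels a small difference between the groups was not detectable by these arrays. The fitted differences were -0.10 ± 0.18 for Slamf1 and -0.18 ± 0.17 for Slamf6 (SE; limma, adjusted p = 0.955 and 0.890). That of Slamf1 turned to 0.06 without HoxA9AA replicate 3 and to 0.01 without HoxA9wt replicate 2.

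Slamf8 and Slamf9 differ from the other transmembrane members in short tails without the tyrosine motif that binds SAP. Slamf8, a receptor of macrophages that restrains their oxidative burst in mice, measured 6.21, 6.10 and 5.95 in HoxA9AA/Meis1 and 6.12, 6.16 and 6.17 in HoxA9wt/Meis1 marrow. These values were within the olfactory receptor range on all 6 arrays. Their difference was -0.06 ± 0.10 (SE; limma, adjusted p = 0.942), and it was 0.005 without HoxA9AA replicate 3.

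Slamf9 showed the widest difference of the 8, carried by 1 mouse. It measured 6.76, 6.65 and 6.79 in HoxA9AA/Meis1 marrow and 7.92, 6.70 and 6.95 in HoxA9wt/Meis1 marrow. HoxA9wt replicate 1 stood 0.97 or more above each of the other 5 mice, which lay between 6.65 and 6.95, and HoxA9wt replicate 2 lay inside the HoxA9AA values. The difference was -0.46 ± 0.30 (SE; limma, adjusted p = 0.815), with a 95% interval of -1.18 to 0.27. It shrank to -0.09 without HoxA9wt replicate 1 and widened to -0.70 without HoxA9wt replicate 2. The SD was 0.074 in HoxA9AA/Meis1 and 0.64 in HoxA9wt/Meis1 marrow, while over all genes the SD was larger in HoxA9AA/Meis1 for 70.8%, as it was for 5 of the 8 receptors.

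**Figure D2:**
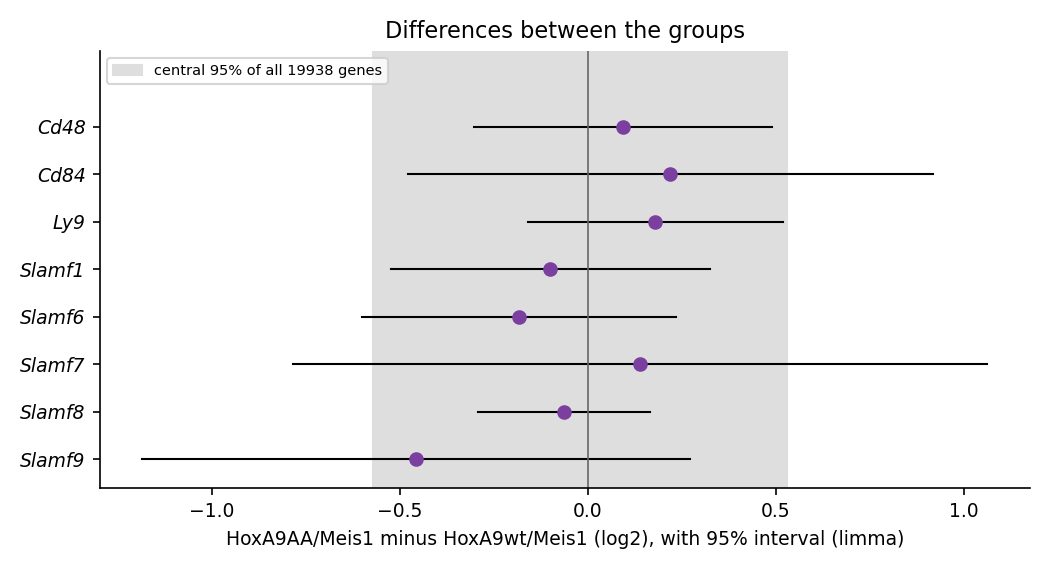
Difference between the group means of each SLAM receptor gene (horizontal axis, HoxA9AA/Meis1 minus HoxA9wt/Meis1, log2), with its 95% interval from limma (3 mice a group); the grey band holds the central 95% of the differences of all 19938 genes, from -0.57 to 0.53. All 8 points lie inside the band and all 8 intervals include 0, and the lowest point is Slamf9 at -0.46.

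The genes whose pattern over the 6 arrays was nearest to that of Slamf9 were highest in HoxA9wt replicate 1, which follows from how they were chosen. Nearness was the root mean square difference between gene-centred values over the 6 arrays, and predicted genes were passed over. The nearest were Plin2, which coats lipid droplets (0.057), the phospholipid transfer protein gene Pltp (0.089), Tmem171 (0.089), the TNF family ligand gene Tnfsf9 (0.11) and Dusp6, a phosphatase of ERK (0.14). Plin2 measured 10.31, 10.17 and 10.19 in HoxA9AA/Meis1 and 11.32, 10.19 and 10.45 in HoxA9wt/Meis1 marrow. Pltp measured 7.65, 7.69 and 7.61 in HoxA9AA/Meis1 and 9.0, 7.70 and 7.94 in HoxA9wt/Meis1 marrow. In both genes, as in Slamf9, the 3 HoxA9AA mice and HoxA9wt replicate 2 were close together and HoxA9wt replicate 1 was alone at the top.

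The genes nearest to Cd84 were Trim12a, a member of the TRIM family (0.10), the zinc finger gene Zfp949 (0.13), the mitochondrial outer membrane gene Mtx3 (0.15), Cxcl10, a chemokine induced by interferon (0.15), and Jkamp (0.15). Trim12a measured 9.68, 9.64 and 9.13 in HoxA9AA/Meis1 and 9.72, 9.02 and 9.08 in HoxA9wt/Meis1 marrow. Cxcl10 measured 7.35, 7.44 and 6.65 in HoxA9AA/Meis1 and 7.73, 6.75 and 6.66 in HoxA9wt/Meis1 marrow. HoxA9AA replicates 1 and 2 and HoxA9wt replicate 1 were the 3 highest mice for both genes and for Cd84. These likenesses rest on 6 arrays and on a search through all genes, and shared high and low mice follow from that search. None of the 10 nearest genes passed the test between the groups (limma, adjusted p of 0.753 to 0.984), where 0% of all genes passed.

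**Figure D3:**
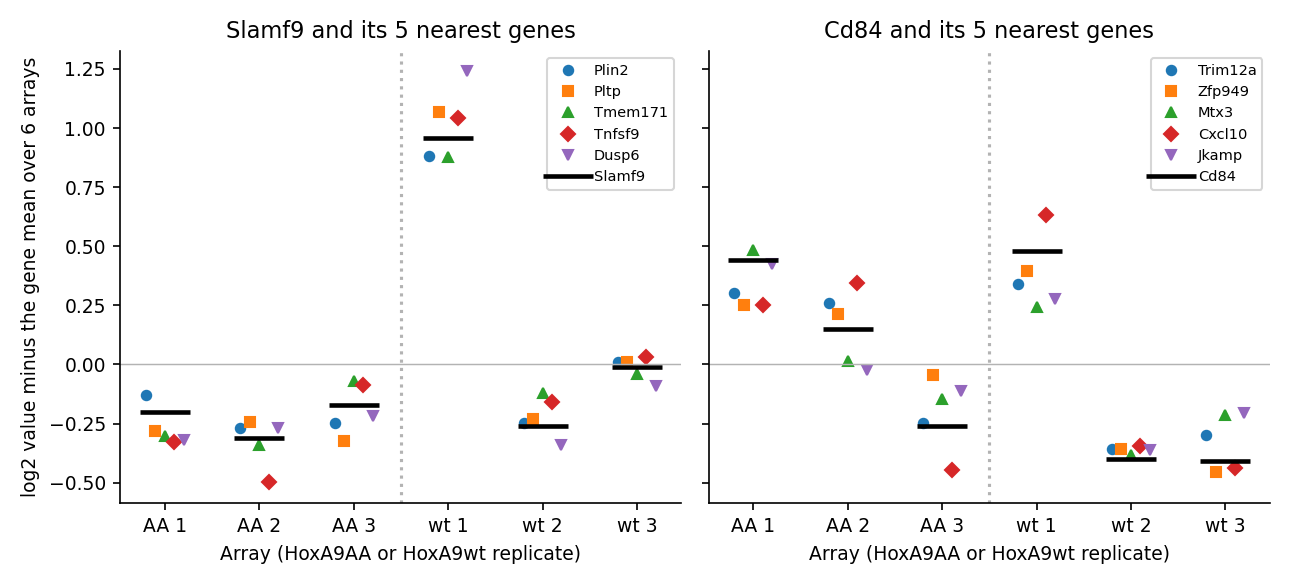
Gene-centred values (vertical axis, log2 value minus the mean of the gene over the 6 arrays) on each array for Slamf9 (left, black bars) and Cd84 (right, black bars) with the 5 genes nearest to each (coloured symbols); HoxA9AA arrays stand left of HoxA9wt arrays. Slamf9 and its nearest genes are highest in HoxA9wt replicate 1, where Slamf9 measured 7.92, and Cd84 and its nearest genes are lowest in HoxA9wt replicates 2 and 3 or HoxA9AA replicate 3.

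Of 19 other genes of SLAM signalling on a list drawn up from general knowledge, 18 were measured, and 0 passed the test (limma, adjusted p under 0.05). Of these 18, 1 was higher and 1 lower at an unadjusted p under 0.05, where 4.15% of all genes were higher and 2.59% lower, and the median difference was -0.07, against 0.01 over all genes. The lower gene was Cd244a, described above. The higher one was Pik3r4, the regulatory subunit of the lipid kinase Vps34 that works with Beclin-1 at the phagosome, to which Slamf1 is known to bind in mouse macrophages. Pik3r4 measured 8.90, 8.86 and 9.13 in HoxA9AA/Meis1 and 8.70, 8.63 and 8.49 in HoxA9wt/Meis1 marrow, so that its groups did not overlap. The difference was 0.36 ± 0.11 (SE; limma, unadjusted p = 0.016, adjusted p = 0.731). Its partners had differences below 0 that did not pass: Uvrag had a difference of -0.29 ± 0.17 (adjusted p = 0.783), Pik3c3 of -0.22 and Becn1 of -0.01. Without HoxA9AA replicate 1 they were -0.11 for Uvrag, -0.02 for Pik3c3 and 0.03 for Becn1, and that of Becn1 was also above 0 without HoxA9wt replicate 3 (0.04) and after median centring (0.015).

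Among the SAP family adaptors, Sh2d1b1 was the one with signal far above background, and 1 mouse set its difference. Sh2d1b1 encodes EAT-2, the adaptor of NK cells and of myeloid cells, and measured 8.09, 10.83 and 10.68 in HoxA9AA/Meis1 and 11.17, 10.38 and 10.50 in HoxA9wt/Meis1 marrow. HoxA9AA replicate 1 was 2.29 or more below each of the other 5 mice, and the other HoxA9AA mice lay among the HoxA9wt mice. The difference of -0.82 ± 0.73 (SE; limma, adjusted p = 0.877) turned to 0.07 without HoxA9AA replicate 1. Sh2d1a, the SAP of T and NK cells, measured 5.21, 5.34 and 5.46 in HoxA9AA/Meis1 and 5.32, 5.34 and 5.57 in HoxA9wt/Meis1 marrow. The second EAT-2 gene of mice, Sh2d1b2, measured 5.42, 6.02 and 5.91 in HoxA9AA/Meis1 and 6.07, 5.71 and 5.92 in HoxA9wt/Meis1 marrow. Both lay within the olfactory receptor range on every array, with adjusted p of 0.942 and 0.944.

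The listed kinases and phosphatases that work at SLAM receptor tails had differences of -0.11 to 0.39, and none passed. Csk, which holds Src family kinases inactive, had the widest, at 0.39 ± 0.22 (SE; limma, adjusted p = 0.782), with 8.03, 8.10 and 8.76 in HoxA9AA/Meis1 and 8.15, 7.77 and 7.81 in HoxA9wt/Meis1 marrow. It was 0.155 without HoxA9AA replicate 3. Fyn, the kinase that SAP recruits, ranged from 6.23 to 8.27 in HoxA9AA/Meis1 and from 6.70 to 7.57 in HoxA9wt/Meis1 marrow. Its difference of 0.03 turned to -0.56 without HoxA9AA replicate 3, to -0.16 without HoxA9wt replicate 2 and to -0.04 without HoxA9wt replicate 3, and it was 0.46 without HoxA9AA replicate 1. The phosphatase genes Ptpn6, Ptpn11 and Inpp5d had differences of -0.11, -0.06 and 0.11. Without HoxA9AA replicate 1 those of Ptpn6 and Ptpn11 turned to 0.06 and 0.13, and without HoxA9AA replicate 3 that of Inpp5d was 0.0083. With array weights that of Ptpn11 turned to 0.01.

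**Figure D4:**
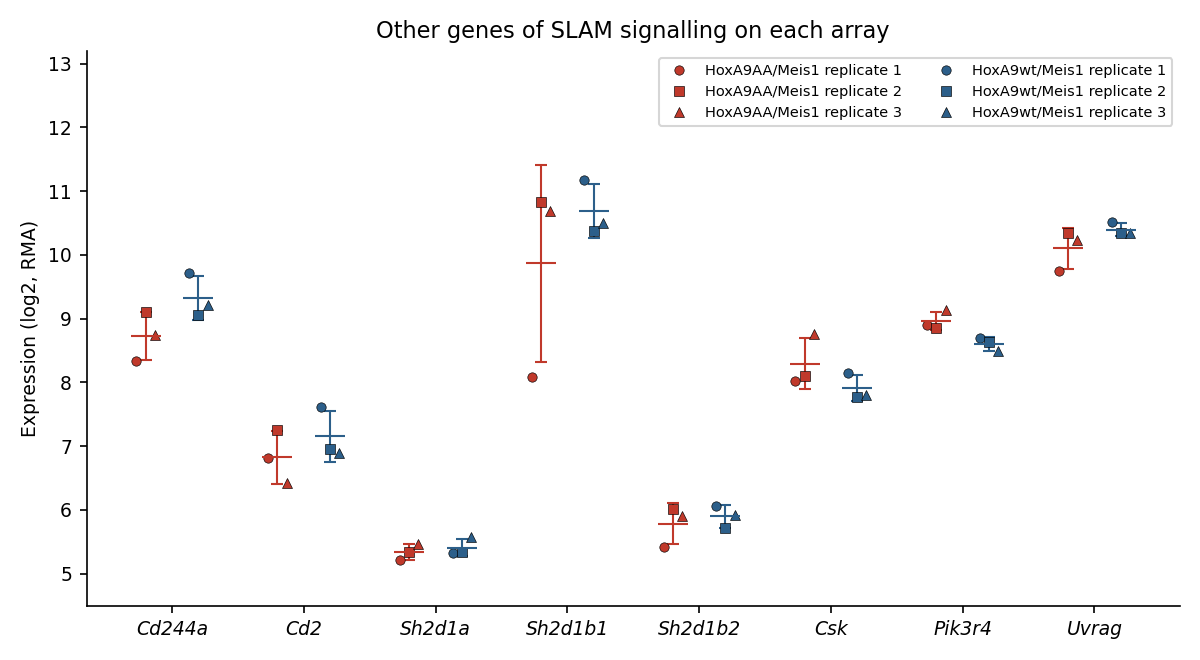
Expression values (log2, vertical axis) of 8 other genes of SLAM signalling on each array, with HoxA9AA/Meis1 in red left of HoxA9wt/Meis1 in blue; each symbol is 1 mouse and bars give mean ± SD of 3 mice. Sh2d1b1 is at 8.09 in HoxA9AA replicate 1 and at 10.38 or more in the other mice, and the groups do not overlap for Pik3r4.

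The genes between the receptors on chromosome 1 had small differences in both directions. Of the 43 genes from Ly9 to Slamf8 in the RefSeq table, 25 were measured, 17 of them not SLAM receptors. None of the 17 passed (limma), 0 had an unadjusted p under 0.05 against 6.74% of all genes, and the median difference was 0.03. The smallest p values belonged to Pigm, an enzyme of the lipid anchor that also holds CD48 (-0.25 ± 0.12, adjusted p = 0.745), and the actin-binding protein gene Tagln2 (0.33 ± 0.17, adjusted p = 0.754). Next came the planar polarity gene Vangl2 (0.19) and Dcaf8 (0.13). Leaving out 1 array gave -0.33 to -0.14 (without HoxA9AA replicate 1) for Pigm, 0.205 without HoxA9AA replicate 1 to 0.515 without HoxA9AA replicate 2 for Tagln2, 0.05 without HoxA9AA replicate 1 to 0.26 for Vangl2 and 0.03 without HoxA9AA replicate 3 to 0.19 for Dcaf8.

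Markers of several cell types that carry SLAM receptors were read beside them. In HoxA9AA replicate 1 and again in HoxA9AA replicate 3, 9 of 10 measured monocyte and macrophage markers were below every HoxA9wt mouse, where 26.4% of all genes were in HoxA9AA replicate 1 and 29.3% in HoxA9AA replicate 3. In HoxA9AA replicate 2 this held for 2 of the markers and 26.4% of all genes. For the 8 SLAM receptors the same count was 1 in HoxA9AA replicate 1, 2 in HoxA9AA replicate 2 and 3 in HoxA9AA replicate 3, which is near those shares of all genes. The mean level of the 10 markers was 9.45 to 11.03 in HoxA9AA/Meis1 and 10.8 to 11.2 in HoxA9wt/Meis1 marrow, and all stood above the olfactory receptor range on all 6 arrays except Clec4a3, which was inside it in HoxA9AA replicate 1 (6.69). Ctss, a lysosomal protease, measured 10.62, 12.24 and 11.35 in HoxA9AA/Meis1 and 12.52, 12.32 and 12.41 in HoxA9wt/Meis1 marrow, with a difference of -1.01 ± 0.38 that did not pass (limma, adjusted p = 0.731). In HoxA9AA replicates 1 and 3, Cd48, Cd84 and Ly9 lay between -0.15 and 0.55 of the HoxA9wt mean, and of these values only that of Ly9 in replicate 1 (9.69) was below every HoxA9wt mouse. Cd244a did lie low in those mice, at 8.34 and 8.74, and the part of monocytes in its values was not tested.

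Most defining markers of lymphoid cells lay within the olfactory receptor range or just above it. The brightest T cell markers, Cd3e (7.07 to 7.53), Cd247 (6.74 to 7.03) and Cd8a (6.72 to 7.19), were just above that range on all 6 arrays. The 7 measured T cell markers had a mean level of 6.50 to 6.65 in HoxA9AA/Meis1 and 6.44 to 6.70 in HoxA9wt/Meis1 marrow, and the 7 B cell markers one of 6.45 to 6.65 in HoxA9AA/Meis1 and 6.31 to 6.42 in HoxA9wt/Meis1 marrow. The B cell genes Cd79a and Ms4a1 lay within the olfactory receptor range on every array, while Cd79b, a chain of the B cell receptor, measured 7.46 to 9.37 in HoxA9AA/Meis1 and 7.57 to 8.46 in HoxA9wt/Meis1 marrow. Vpreb3, a gene of precursor B cells, measured 7.60, 7.16 and 7.20 in HoxA9AA/Meis1 and 6.67, 6.78 and 6.74 in HoxA9wt/Meis1 marrow, groups that did not overlap (limma, unadjusted p = 0.004, adjusted p = 0.731). The mean was higher in HoxA9AA/Meis1 for 6 of the 7 B cell markers, against 53.6% of all genes, and 0 of the 7 passed the test. Of 7 NK cell markers, Nkg7, a granule protein, had the widest difference, 2.21, which did not pass (limma, adjusted p = 0.731). It measured 11.87, 7.94 and 10.94 in HoxA9AA/Meis1 and 8.64, 8.08 and 7.39 in HoxA9wt/Meis1 marrow, groups that overlapped. Ncr1, the defining receptor of NK cells, was within the olfactory receptor range at 5.40 to 5.57 in HoxA9AA/Meis1 and 5.49 to 5.69 in HoxA9wt/Meis1 marrow. The mean of 5 of 6 listed stem and progenitor cell markers was higher in HoxA9AA/Meis1 marrow, where 53.6% of all genes had a higher mean. None of the 6 passed the test. Kit, the receptor of stem cell factor, measured 9.96, 8.43 and 10.49 in HoxA9AA/Meis1 and 8.63, 7.54 and 8.38 in HoxA9wt/Meis1 marrow, a difference of 1.44 (limma, adjusted p = 0.731). Cd34, a surface protein of progenitors, measured 10.40, 9.16 and 10.33 in HoxA9AA/Meis1 and 10.14, 7.36 and 9.16 in HoxA9wt/Meis1 marrow, a difference of 1.08 (adjusted p = 0.816), and that of Hlf was 0.44. Procr and Mecom, with differences of 0.06 and 0.14, lay within the olfactory receptor range, at 6.29 or less, on all arrays. Fgd5, close to the upper end of that range at 6.53 to 6.76, had a difference of -0.02. Slamf1 was at background in the mice with high Kit as in the others.

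**Figure D5:**
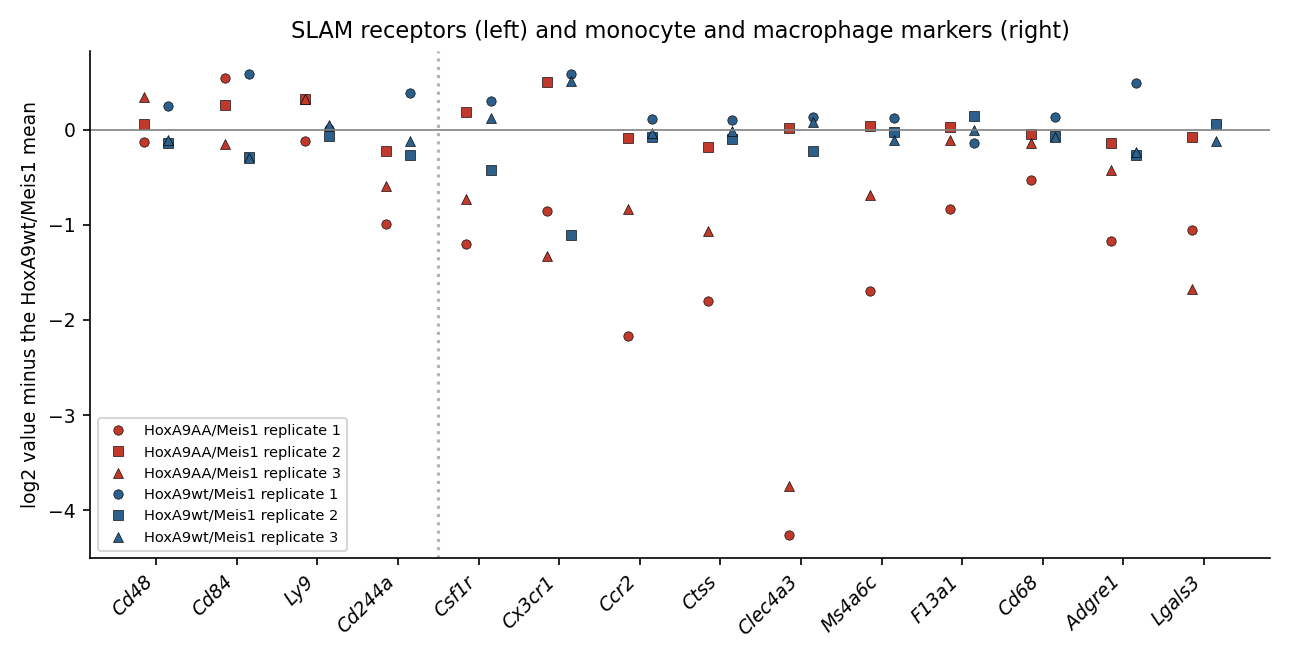
Values relative to the HoxA9wt/Meis1 mean (vertical axis, log2) on each array for Cd48, Cd84, Ly9 and Cd244a, left of the dotted line, and for 10 monocyte and macrophage markers, right of it; red symbols are HoxA9AA/Meis1 mice and blue symbols HoxA9wt/Meis1 mice. Most markers are low in HoxA9AA replicates 1 and 3, where Cd48, Cd84 and Ly9 stay between -0.15 and 0.55.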

How the data were processed

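Bone marrow RNA of 6 mice was hybridised to 1 array each. The authors made the deposited log2 values with the R package oligo and RMA (background correction, quantile normalization, probe set summary), per the submitters' processing notes; no version or annotation is given there. Precision is limited by the number of arrays. Gene symbols came from the platform annotation: of 35556 probe sets, 21789 had 1 symbol, 1621 had several and were not used, and 12146 were not listed. The brightest probe set per gene left 19938 genes. Groups followed the sample titles.

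HoxA9AA/Meis1 was compared with HoxA9wt/Meis1 with limma 3.58.1 in R 4.3.3 (lmFit, eBayes without trend, two-sided, no block) and Benjamini-Hochberg adjustment over all genes, at a threshold of 0.05; the script was tested on simulated data. Differences are given as HoxA9AA/Meis1 minus HoxA9wt/Meis1. The members, lists, naming rule and tests were chosen with earlier results of these data known. The text names all 8 receptors, pathway genes with an unadjusted p under 0.05, the 4 others with the widest difference and all SAP family adaptors, up to 4 chromosome 1 neighbours, the 5 genes nearest to each of the 2 receptors with the widest difference, and up to 3 bright markers per cell type. Ncr1, Cd79a, Clec4a3, Ms4a1, Procr, Mecom, Fgd5, Hoxa9, Pik3c3, Becn1, Fyn, Ptpn6, Ptpn11 and Inpp5d were named outside this rule. Same-numbered mice of the 2 groups deviated from their group means at r of -0.21, -0.10 and -0.01, across genes. Differently numbered mice gave r of -0.16 to 0.24. No pairing by number was seen, but with 3 mice a group this check cannot exclude one. Promoter sequences and gene order came from RefSeq tables of assembly GRCm38.p6, a build that the array annotation does not name. Alternatives were the replicate block, leaving out each array, filters on low values, quantile normalization, median centring, other probe set rules, other variance moderation and array weights.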

Additional observations from a re-analysis of the deposited data

How the results depend on the processing

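With all 6 arrays, no receptor changed direction or passed the threshold under any of the other settings. These were the replicate number as a block, filters at the median (6.81) and the 0.2 quantile (5.27) of all values, quantile normalization, median centring, averaged probe sets, all probe sets, trend and robust moderation, no moderation, and array weights. The filters left 5 and 7 of the 8 receptors to test. The replicate block called 0 genes, as the fit without it did, and gave Slamf9 a difference of -0.46 ± 0.25 (adjusted p = 0.920) and Cd84 one of 0.22 ± 0.16 (adjusted p = 0.970); it changed no call. Leaving out single arrays gave 0 to 48 called genes, with 48 without HoxA9AA replicate 2, the HoxA9AA array most like the HoxA9wt ones, and 1 without HoxA9wt replicate 3; neither SLAM receptors nor the listed pathway and chromosome 1 genes were among them. Over these 6 fits the differences ran from -0.22 to 0.063 for Slamf1, -0.35 to -0.08 for Slamf6, -0.22 to 0.47 for Slamf7, -0.125 to 0.005 for Slamf8, -0.70 to -0.09 for Slamf9, -0.035 to 0.22 for Cd48, 0.055 to 0.515 for Cd84 and 0.105 to 0.33 for Ly9. The turned signs were those of Slamf1 (0.063 without HoxA9AA replicate 3, 0.012 without HoxA9wt replicate 2), Slamf7 (-0.22 without HoxA9AA replicate 2, -0.105 without HoxA9wt replicate 2), Slamf8 (0.005) and Cd48 (-0.035), the last pair without HoxA9AA replicate 3. Settings for the pathway and chromosome 1 genes were added after seeing the data. They were run for the named genes of these lists, among which Sh2d1b1 (-1.30 to 0.072) and Sh2d1b2 (-0.235 to 0.065) turned without HoxA9AA replicate 1, and Sh2d1a (-0.135 to 0.0067) without HoxA9wt replicate 3. Fyn (-0.56 to 0.46) turned without HoxA9AA replicate 3 (-0.56), HoxA9wt replicate 2 (-0.157) and HoxA9wt replicate 3 (-0.042). Ptpn6 (-0.23 to 0.06) and Ptpn11 (-0.22 to 0.127) turned without HoxA9AA replicate 1, and Ptpn11 also with array weights (0.011). Becn1 (-0.063 to 0.037) turned without HoxA9AA replicate 1 (0.033) and HoxA9wt replicate 3 (0.037), and after median centring (0.015). Other than under array weights and centring, each such fit has 1 mouse less; the cause was not tested further. With 3 mice a group, and Slamf1, Slamf6 and Slamf8 within the olfactory receptor range, small differences were not detectable.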
